A study of Drosophila melanogaster with 12 samples.

Results

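The genes described here lie on chromosome arm 2L of Drosophila melanogaster, in the 5 Mb that start at 9.2 Mb, and carry only a CG name. A CG name is the letters CG with a number, given to a gene by the genome annotation before anyone named it for a function. Members are the rows whose listed name has that form and whose midpoint falls in the interval, on the D_melanogaster_Apr_2006 (dm3) coordinates of the deposited tables, with at least 10 counts in 3 or more of the 12 libraries. Of 318 such rows 315 were kept, out of 13040 genes in the deposited tables, and the rule itself uses no measured change, although the interval was proposed with earlier results of these data known. The other 3, CG14947, CG16800 and CG43438, reached 10 counts in 2, 1 and 1 libraries.

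PolyA-selected RNA of whole adult flies of Canton S background, 10 to 11 days old, was sequenced in 4 groups of 3 libraries. The het group was AKHR +/- with no obese parent, the paternal group was AKHR +/- with an obese father, the maternal group was AKHR +/- with an obese mother, and the wildtype group carried no labelled mutation. All 9 heterozygous libraries therefore share 1 labelled allele, and each comparison with wildtype sets both that allele and whatever else differs between the stocks against the same 3 wildtype libraries. Each library holds RNA of the whole body, so fewer cells of a type and less RNA per cell cannot be told apart. Libraries held 17212029 to 21370713 counts over the listed genes. The sex of the flies was not given. Yolk and chorion genes, which mark females, summed to 16.9 to 23.0 CPM (counts scaled to the library total) over all 12 libraries, for the 5 found of 10 listed. Testis and sperm genes summed to 2191 to 2625 CPM in the heterozygous libraries, against 2079 to 2164 CPM in wildtype. Genes of the male accessory gland, which makes seminal fluid proteins, summed to 3794 to 4267 CPM in heterozygous and 4471 to 4847 CPM in wildtype libraries. The accessory gland, eye and gut sums were lower in every heterozygous library than in every wildtype one, and the testis sums were higher. Muscle sums overlapped, at 3900 to 4518 CPM in heterozygous and 4166 to 4759 CPM in wildtype libraries. So did fat body sums, at 1031 to 1536 CPM and 799 to 1526 CPM.

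AKHR, the adipokinetic hormone receptor, is a G-protein-coupled receptor of the fat body, and its hormone mobilises stored lipid and glycogen in insects much as glucagon does in mammals. Its gene, AkhR, listed as GRHR, also lies on 2L, with its midpoint at 6.71 Mb, outside the interval. AkhR itself was at 71.6 to 84.3 CPM in the 9 heterozygous libraries and 77.3 to 84.8 CPM in the 3 wildtype libraries, with a log2 change of -0.06 (edgeR quasi-likelihood test, adjusted p = 0.664). The members lie 2.56 to 7.46 Mb from it.

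The 315 members are split between the strands, 162 on the plus and 153 on the minus strand, and their median listed length is 1413 bp. By their identifiers 302 have an entry in the current annotation, where 76 now bear a symbol other than the CG name, 298 are protein coding and 4 are noncoding. Overlap is common: 142 members share part of their span with another listed gene. How the counting treated strand is not stated, so reads that fall on a member and on an overlapping gene cannot be told apart, and 4 members have the same counts as another member in every library. Mean level per length ran from 0.0918 to 1160 FPKM (fragments per kilobase, scaled to library size), with a median of 17.4 FPKM. In all 37 members were above 100 FPKM and 10 were below 1 FPKM. CG6770 at 1157 FPKM and CG16826 at 1145 FPKM were among the most abundant, followed by CG17097 at 877 FPKM, the pair CG6555 and CG15841 at 817 FPKM each, and at 810 FPKM CG5945, now Jhbp13, a protein of the juvenile hormone binding family. Members together took 2.69 to 2.81% of the listed reads in each library. CG43333, the last member by position, had 3 to 11 counts and was too low to test, so 314 members were tested.

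In the main fit, which leaves out the replicate number, 14 members passed the threshold (adjusted p under 0.05 over all 12809 tested genes) against wildtype. These calls, in the mean of the 3 heterozygous groups, were 4 higher and 10 lower. That is 4.46% of the members, beside 1.49% of all tested genes (0.515% higher and 0.976% lower). The lower ones include CG6555 and CG15841, whose counts are identical. With such rows counted once, 13 members passed, 4 higher and 9 lower. CG14945, now PLCXD, a phospholipase C X-domain protein, rose most, at 2.49-fold. The falls were shallow: the 10 lower members were at 0.824 to 0.900 of wildtype. Within single groups 3 members rose and 4 fell in the het group (2.23%, beside 0.593% of all tested genes, 0.203% higher and 0.39% lower), 1 rose and 5 fell in the paternal group (1.91%, beside 0.523%, 0.156% higher and 0.367% lower), and 2 rose and none fell in the maternal group (0.637%, beside 0.344%, 0.156% higher and 0.187% lower). Fitting the replicate number, which was read as pairing the libraries, as a block gave more calls. In the mean of the 3 groups 34 of the 314 tested members passed, 12 higher and 22 lower, where the background was 5.43%. In het flies 21 of the 314 passed, 6 higher and 15 lower, beside 2.22% of all tested genes. In paternal flies 14 passed, 3 higher and 11 lower, beside 1.61%, and in maternal flies 15, 5 higher and 10 lower, beside 1.77%. The number called in the mean of the 3 groups was 5, 4 and 6 without wildtype library 1, 2 and 3, and 24 without maternal library 1. Library totals without scaling factors gave 6 higher and 8 lower.

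**Figure D1:**
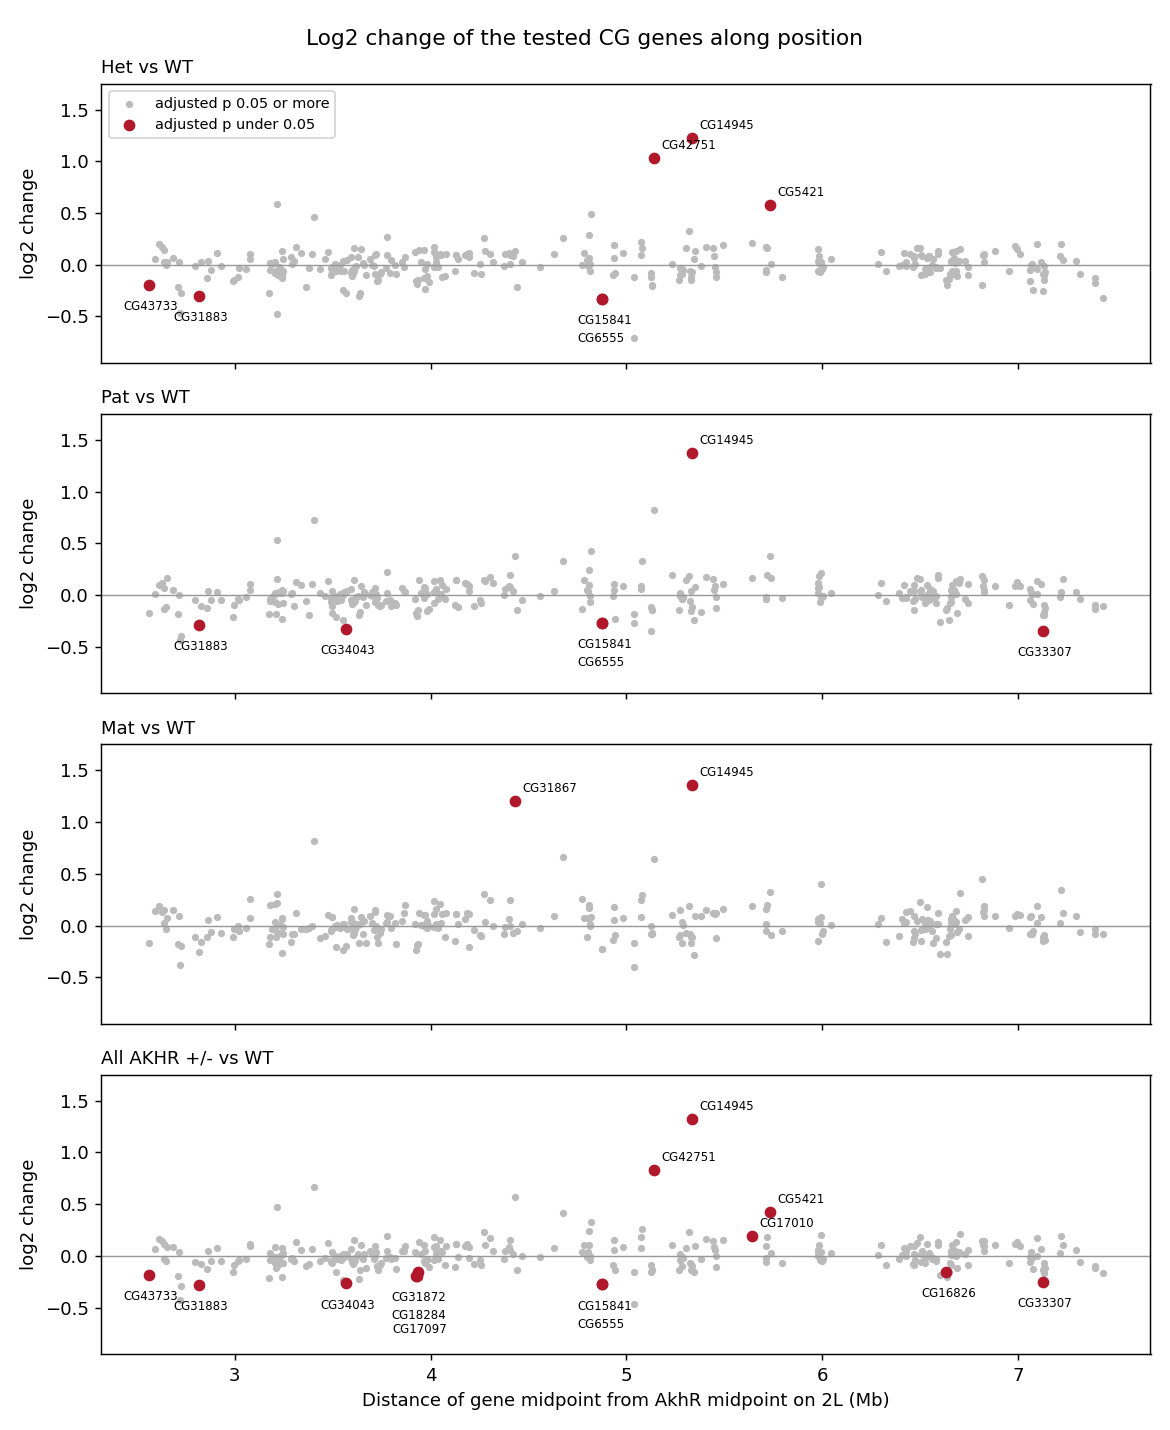
Log2 change (vertical) of the 314 tested members against their distance in Mb from AkhR along 2L (horizontal), for het, paternal, maternal and the mean of the 3 heterozygous groups against wildtype; each point is 1 gene and red points passed adjusted p 0.05. Most members lie near 0, CG14945 stands highest in each panel, and the 10 lower calls of the bottom panel are spread along the interval.

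The share of calls in the interval was near that of the adjacent stretch with AkhR. It was below that of the distal end of 2L and above that of the proximal rest. In het flies 2.23% of members and 2.37% of CG genes in the stretch with AkhR passed. The shares were 1.91% and 1.78% in paternal flies, and 0.637% and 1.48% in maternal flies. In the mean of the 3 heterozygous groups, 4.46% of the members passed, against 13.3% of CG genes distal of 4.2 Mb (37 of 279), 4.75% in the 5 Mb that hold AkhR (16 of 337), 1.28% proximal of the interval (5 of 390), and 0.763% off 2L (42 of 5503). These shares are a description with no test of the difference. The directions also differed in number: members had 4 higher and 10 lower, the stretch with AkhR 9 and 7, and the distal stretch 18 and 19. Among the other listed genes of the same interval, 0 of 16 genes with a CR name (noncoding RNA genes) passed, where 1 had an unadjusted p under 0.05. Of the 270 genes with neither a CG nor a CR name 4 passed (1.48%, beside 1.49% of all tested genes). The 4 were Gyc32E, Tsp33B, Ggamma30A and Sfp33A3. The median log2 change was 0.00 over the members and -0.01 over all tested genes, and the median absolute log2 change was 0.0744 and 0.066.

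**Figure D2:**
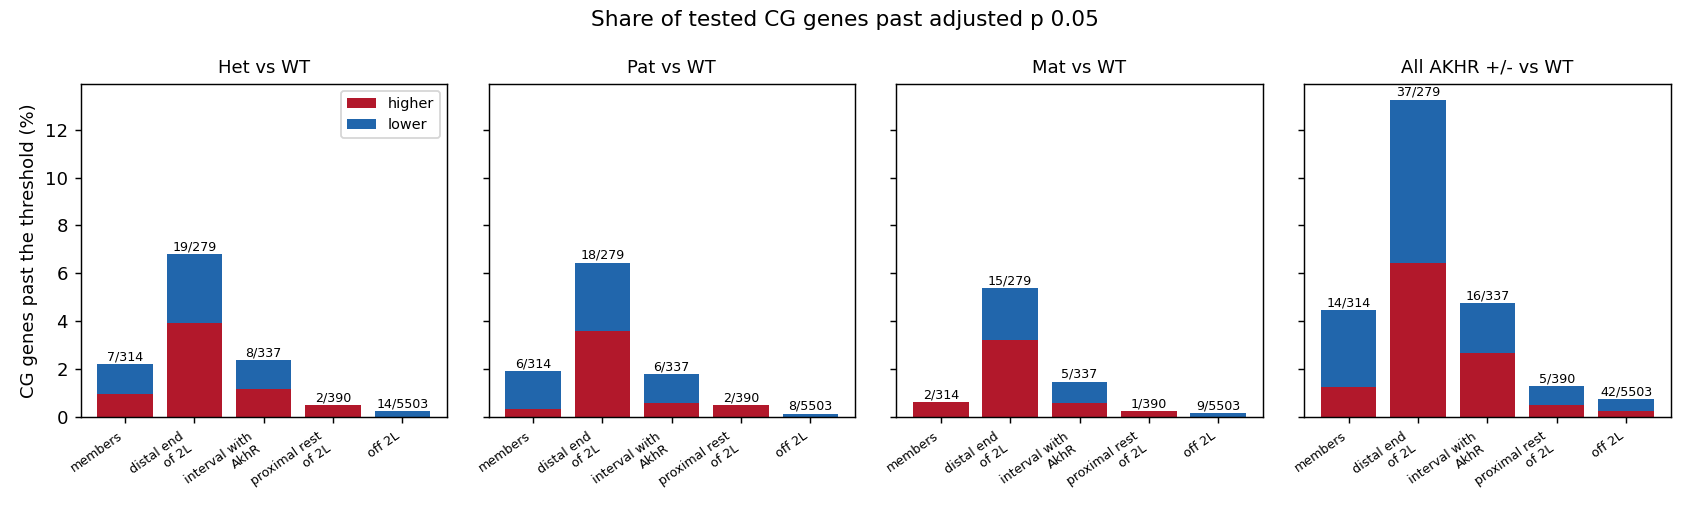
Percentage of tested CG genes past adjusted p 0.05 (vertical), higher in red and lower in blue, for the members and for the CG genes of the distal end of 2L, of the interval with AkhR, of the proximal rest of 2L and off 2L; numbers are genes called of genes tested. In the right-hand panel the members stand at 4.46%, near the interval with AkhR at 4.75%.

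Along the interval the calls were not gathered at one end. In successive windows of 1 Mb from 9.2 Mb, the mean of the 3 groups gave 2 lower of 58 tested, 4 lower of 100, 2 higher and 2 lower of 52, 2 higher of 34, and 2 lower of 70. All 4 higher members thus lie in the third and the fourth window. The 2 lower members of the third window are CG6555 and CG15841, whose counts are identical. The members with the largest absolute change per window were CG42843 (log2 0.67, adjusted p = 0.237 by edgeR), CG31867 (0.57, 0.223), CG14945, CG5421 and CG33307. Members just inside and outside the limits gave -0.18 for CG43733, the first inside, and -0.02 for CG9586, the last outside (adjusted p = 0.914). At the other end CG32971, the first outside, was at -0.04 (adjusted p = 0.877).

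The calls divided by level. Of the 157 members above the median level of 26.6 CPM, 1 rose and 10 fell (7.01%), and of the 157 at or below it 3 rose and none fell (1.91%), beside 1.49% of all tested genes. The 10 that fell include CG6555 and CG15841, whose counts are identical, as separate members. The background covers genes of every level, and no share was computed for all tested genes split at this level. A member at or below the median can fall without passing: CG42470 was at -0.46 ± 0.134 (edgeR adjusted p = 0.0998). An unadjusted p under 0.05 was found in 44 of the 157 members above the median and 18 of the 157 at or below it, beside 14.6% of all tested genes. The accessory gland, eye and gut marker sums were also lower in the heterozygous libraries, and their part in the falls was not tested. For the eye list, 3 of 10 genes were lower, its sums were 9098 to 9483 CPM in heterozygous and 10101 to 10590 CPM in wildtype libraries, and its median log2 change was -0.10. For the accessory gland list, 2 of 10 were lower and the median was -0.20. For the gut list, none of 6 tested passed, its sums were 3301 to 3860 CPM in heterozygous and 4064 to 4284 CPM in wildtype libraries, 3 had an unadjusted p under 0.05, and the median was -0.10. No listed gene of these 3 lists was at 0. For the fat body list 1 of 4 tested genes was higher (median 0.20), and for the muscle list none of 10 passed (median -0.05). The 9 heterozygous libraries did not overlap the 3 wildtype ones in 13 members that were higher and 12 that were lower, beside 3.1% and 2.72% of all tested genes, 5.82% in either direction.

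CG14945 (FBgn0032402, dm3 chr2L:12049423-12052049, plus strand) gave the largest rise. The het libraries had 18.8, 19.7 and 23.1 CPM, the paternal libraries 21.8, 22.6 and 23.8 CPM, the maternal libraries 20.3, 24.2 and 23.2 CPM, and the wildtype libraries 5.86, 10.8 and 9.76 CPM. All 9 heterozygous libraries were above all 3 wildtype ones, and the lowest wildtype library was the first. The log2 changes were 1.22 ± 0.165 for het, 1.37 ± 0.164 for paternal and 1.36 ± 0.164 for maternal (SE), with edgeR adjusted p-values of 0.00377, 0.00174 and 0.00217. The mean of the 3 groups was 1.32 ± 0.141 higher (adjusted p = 0.000425), and 1.10 without wildtype library 1. Between the heterozygous groups it differed little, with a 95% interval of -0.14 to 0.44 for paternal minus het and -0.15 to 0.43 for maternal minus het on the log2 scale. When only the libraries of both groups compared entered the fit, the adjusted p was 0.12 in het and 0.0728 in paternal flies. The authors' deposited table lists smaller log2 ratios for it, 0.25 for het, 0.31 for paternal and 0.62 for maternal flies. The authors' deposited tables do the same for other scarce members, with 0.25 for CG42751 and 0.24 for CG5421 in het flies and 0.18 for CG31867 in maternal flies. For CG31872, an abundant member, their ratio was -0.19 in maternal flies, beside -0.24 here. The deposited ratios come from the authors' DESeq comparison (DESeq2 by a column header) and the changes here from edgeR, so the measures are unlike. The gene overlaps JhI-21, an amino acid transporter gene on the opposite strand, which was at 34.2 to 39.9 CPM in the heterozygous and 35.5 to 39.1 CPM in the wildtype libraries (log2 0.01, adjusted p = 0.929).

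The other higher members were scarcer or changed less. CG42751 (dm3 chr2L:11853430-11853925) lies inside the span of Pde1c, a phosphodiesterase gene on the opposite strand. It had 4.52, 3.99 and 3.18 CPM in het, 3.89, 3.50 and 2.78 CPM in paternal, 3.47, 3.33 and 2.11 CPM in maternal, and 2.16, 1.72 and 1.84 CPM in wildtype libraries. The groups overlapped in 1 maternal library. The log2 change was 1.03 ± 0.200 in het flies (edgeR adjusted p = 0.015) and 0.83 ± 0.172 in the mean of the 3 groups (adjusted p = 0.0165), and with the replicate block it passed in paternal flies too (0.82, adjusted p = 0.0077). Pde1c was at -0.05 (adjusted p = 0.629). CG5421 (dm3 chr2L:12446080-12448132, minus strand), which overlaps no listed gene, had 8.61, 7.94 and 7.02 CPM in het, 6.63, 6.42 and 7.50 CPM in paternal, 6.94, 6.52 and 6.39 CPM in maternal, and 5.91, 4.73 and 5.16 CPM in wildtype libraries. All heterozygous libraries were above all wildtype ones, and it rose by a log2 change of 0.58 ± 0.114 in het flies (adjusted p = 0.0163 by edgeR) and 0.43 ± 0.0958 in the mean (adjusted p = 0.027). CG17010 (dm3 chr2L:12356441-12357906) had 93.2 to 103 CPM in heterozygous libraries, median 99.3, and 86.0 to 89.7 CPM in wildtype libraries, a rise of 0.19 ± 0.04 (adjusted p = 0.019), and passed in each group with the replicate block (adjusted p up to 0.0406). It shares its strand and span with bru-2, an RNA-binding protein gene that was at -0.08 (adjusted p = 0.376). Within the mean of the 3 groups, the calls of CG42751 and CG17010 were lost without any 1 of the 3 wildtype libraries, with adjusted p up to 0.149 and 0.16. That of CG5421 was lost without wildtype library 2 or 3 or paternal library 3, with adjusted p up to 0.242. The het calls of CG42751 and CG5421 were lost without het library 1 or 2 or wildtype library 2 or 3, up to 0.132 and 0.144.

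CG31867 (dm3 chr2L:11144579-11145417, minus strand) passed in the maternal group alone among the comparisons with wildtype. The maternal libraries had 1.82, 1.74 and 2.11 CPM (32, 35 and 37 counts), the paternal libraries 1.11, 1.34 and 0.787 CPM, the het libraries 0.646, 0.949 and 1.10 CPM, and the wildtype libraries 0.719, 0.914 and 0.817 CPM (14, 17 and 16 counts). Every maternal library was above the other 9. Against wildtype the log2 change was 1.20 ± 0.242 in maternal (edgeR adjusted p = 0.0288), 0.37 ± 0.271 in paternal (adjusted p = 0.683) and 0.14 ± 0.282 in het flies (adjusted p = 0.921). The direct difference, maternal minus het, was 1.07 ± 0.238 with adjusted p = 0.712, and maternal minus paternal was 0.83 ± 0.229 with adjusted p = 1.0, so a difference between the heterozygous groups did not pass. The call was lost without maternal library 2 or 3 or any 1 wildtype library (adjusted p up to 0.16), under DESeq2, and when only the maternal and wildtype libraries entered the fit. The gene lies within the span of Gyc32E, a receptor guanylyl cyclase gene on the same strand, which had 0.632 to 1.08 CPM in heterozygous and 0.215 to 0.460 CPM in wildtype libraries and rose in the mean of the 3 groups (log2 1.14, adjusted p = 0.042).

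**Figure D3:**
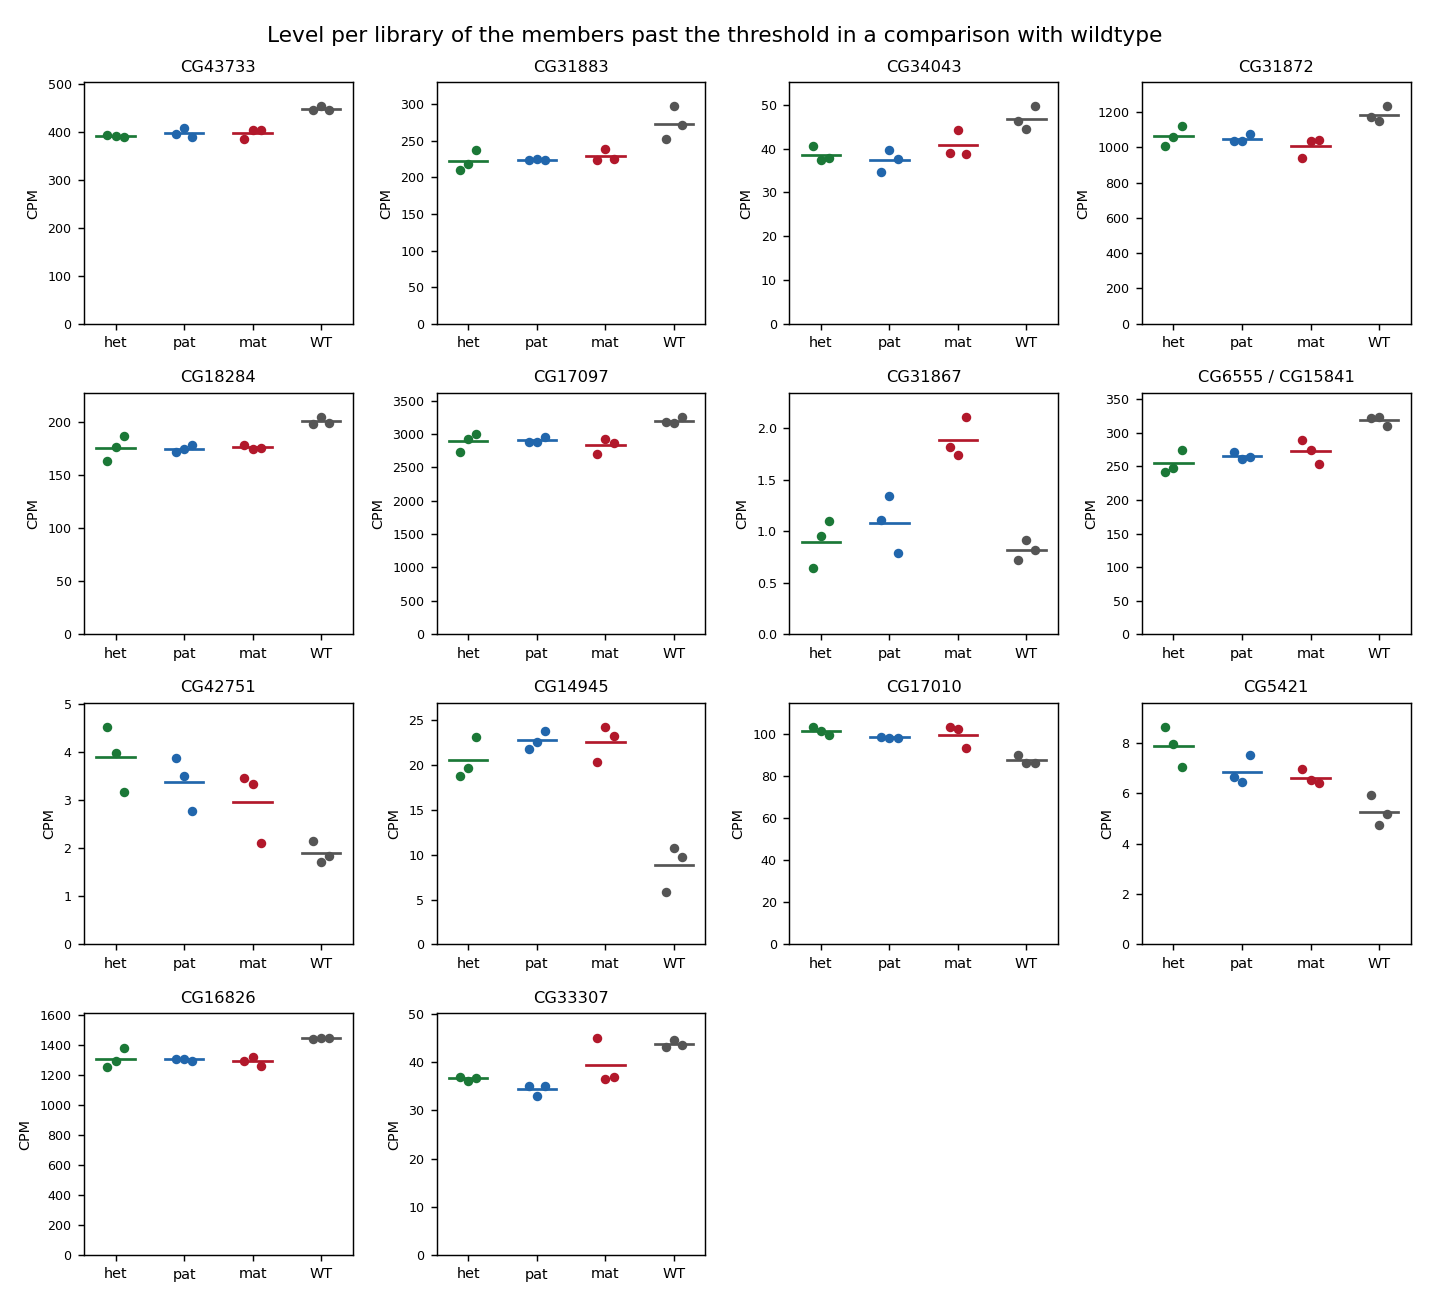
Level in CPM (vertical, from 0) of the members past the threshold in a comparison with wildtype, in het, paternal, maternal and wildtype libraries; points are libraries and bars are group means of 3. CG6555 and CG15841 share 1 panel since their counts are identical. In CG14945 the 9 heterozygous libraries sit at 18.8 to 24.2 CPM, above the wildtype ones at 5.86 to 10.8 CPM, while the lower members are at 0.824 to 0.900 of wildtype in the mean of the 3 groups.

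Among the lower members, CG6555 and CG15841 are listed over the same 340 bp (dm3 chr2L:11591339-11591678, minus strand) with identical counts, and so are 1 measurement. The het libraries had 242, 247 and 275 CPM, the paternal libraries 272, 261 and 264 CPM, the maternal libraries 290, 275 and 253 CPM, and the wildtype libraries 323, 324 and 311 CPM. No heterozygous library reached the wildtype range. The log2 change was -0.33 ± 0.056 in het (edgeR adjusted p = 0.00449), -0.27 ± 0.056 in paternal (adjusted p = 0.032), -0.23 ± 0.056 in maternal (adjusted p = 0.0993, 0.0336 with the replicate block) and -0.27 ± 0.045 in the mean of the 3 groups (adjusted p = 0.00225). With CG14945, these were the members whose call in that mean held without each of the 12 libraries in turn. Single-group calls were less firm, lost without het library 1 in het flies (0.0656) and without any paternal or wildtype library or het library 2 in paternal flies (up to 0.173). The paternal call was also lost without scaling factors and without the robust fit.

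CG31883 (dm3 chr2L:9528515-9529648, plus strand) had 210, 219 and 238 CPM in het, 224, 225 and 224 CPM in paternal, 224, 239 and 225 CPM in maternal, and 253, 297 and 271 CPM in wildtype libraries. The groups did not overlap. It fell by 0.30 ± 0.0583 on the log2 scale in het flies (edgeR adjusted p = 0.0153) and by 0.29 ± 0.0583 in paternal flies (adjusted p = 0.0239), and gave -0.25 ± 0.0583 in maternal flies (adjusted p = 0.0706, 0.00899 with the replicate block). It lies on the same strand within the span of Oatp30B, an organic anion transporter gene, which was at 0.04 in the mean of the 3 groups (adjusted p = 0.729) where CG31883 was at -0.28 (adjusted p = 0.00261). The call in the mean was lost without wildtype library 2, at 0.0726. In het flies it was also lost without het library 1 or 2 or wildtype library 3 (up to 0.164), and in paternal flies without any paternal library or wildtype library 2 or 3 (up to 0.222).

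CG43733 (dm3 chr2L:9256563-9295521, plus strand) has nearly the span and the counts of Ggamma30A, the gene of a G-protein gamma subunit of phototransduction. CG43733 had 385 to 409 CPM in heterozygous libraries, median 394, and 446 to 453 CPM in wildtype libraries. Ggamma30A had 387 to 411 CPM in heterozygous and 448 to 455 CPM in wildtype libraries, so the 2 rows are close to 1 measurement. CG43733 fell by 0.18 ± 0.0345 on the log2 scale in the mean of the 3 groups (edgeR adjusted p = 0.00915) and by 0.20 ± 0.0427 in het flies (adjusted p = 0.0374). With the replicate block it also passed in paternal and maternal flies, at -0.17 in both (adjusted p = 0.0163 and 0.0189). The eye marker sums given above moved the same way. The call in the mean was lost without wildtype library 1 or 2 (adjusted p up to 0.0923), and that in het flies without any het, paternal or wildtype library (up to 0.192).

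A cluster of adjacent genes of the acid lipase family, enzymes that split fatty acids from lipid esters, held the falls nearest each other. CG31872 (dm3 chr2L:10639938-10643492), CG18284 (chr2L:10643985-10645812) and CG17097 (chr2L:10646435-10650152) follow one another on the plus strand. CG31872 had 940 to 1121 CPM in heterozygous libraries, median 1036, and 1150 to 1231 CPM in wildtype libraries. CG18284 had 163 to 187 CPM in heterozygous libraries, median 176, and 198 to 205 CPM in wildtype libraries. CG17097 had 2707 to 3007 CPM in heterozygous libraries, median 2888, and 3160 to 3258 CPM in wildtype libraries. None of the 3 genes had a heterozygous library within the wildtype range. Their log2 changes in the mean of the 3 groups were -0.19 ± 0.0425, -0.19 ± 0.0396 and -0.16 ± 0.0382, with edgeR adjusted p-values of 0.0271, 0.0165 and 0.047, and none passed in a single group. With the replicate block CG31872 and CG18284 passed in each group (adjusted p up to 0.0323 and 0.029), and CG17097 in het and maternal flies (adjusted p = 0.036 and 0.0167). CG17098, next on the arm, was at 144 to 154 CPM in heterozygous libraries and 135 to 136 CPM in wildtype libraries, a log2 change of 0.13 ± 0.0374 that did not pass (adjusted p = 0.0818, 0.0221 with the replicate block). The family members to either side were at 0.03 for CG7329 (adjusted p = 0.853) and 0.02 for CG31871 (adjusted p = 0.967). Each of the 3 calls was lost without any 1 of the wildtype libraries, with adjusted p up to 0.187, 0.159 and 0.208. CG31872 was also lost without het library 1 or 2 or paternal library 1 or 2, and CG17097 without het library 1 or 2 or any paternal library.

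**Figure D4:**
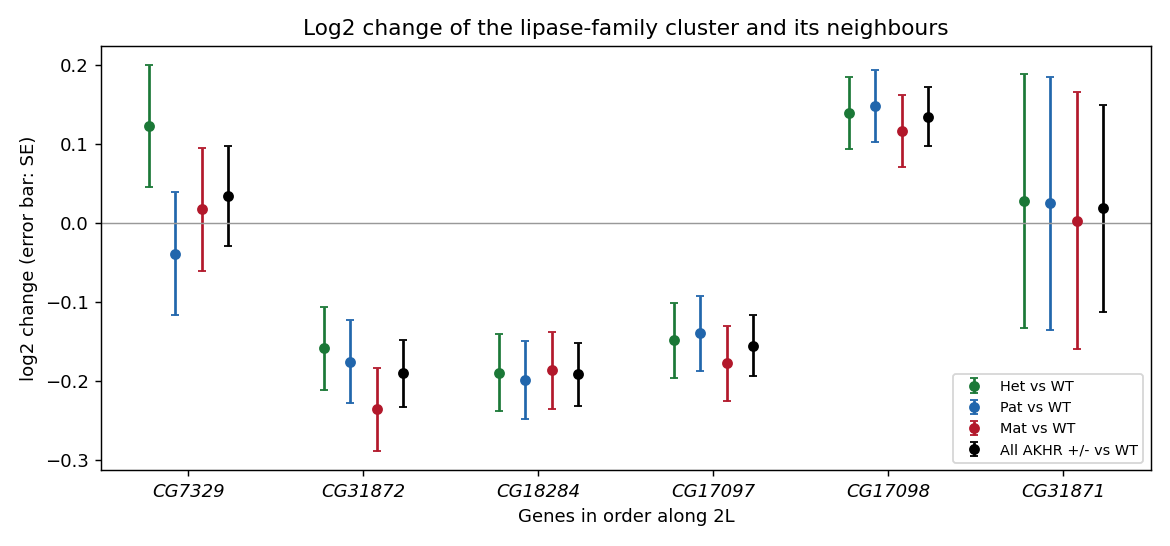
Log2 change with its SE (vertical) of 6 neighbouring tested genes in their order along 2L (horizontal), for het, paternal, maternal and the mean of the 3 heterozygous groups against wildtype. CG31872, CG18284 and CG17097 lie between -0.14 and -0.24 in each comparison, while CG17098 lies above 0 and CG31871 close to 0.

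CG18284 also has the exon at the top of the authors' deposited list of altered exon use. In the authors' deposited table the exon at dm3 chr2L:10645160-10645315, 156 bp long, has a log2 ratio of 2.61 in maternal against wildtype flies and 2.89 in maternal against het flies. It is first by absolute log2 ratio and by score of the 99 and 98 exons listed there. For the whole gene the same authors' deposited tables give log2 ratios of -0.15 and 0.00. No exon of CG18284 is listed in the authors' deposited tables for het or paternal flies against wildtype. Of the other members, CG14932 is listed in het flies (exon log2 ratio 1.08) and CG31869 in het and maternal flies (1.28 and 1.22, with a score of 0 in both) in the authors' deposited tables. Exons listed per table amount to 0.763% of genes for het and 0.764% for maternal against wildtype, with 2 members each, and 0.758% for maternal against het, with 1 member. No member is listed for paternal flies against wildtype (0.632%) or het (0.548%). Counts per exon were not used here, so these ratios have no replicate error.

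The remaining falls were in CG34043, CG16826 and CG33307. CG34043 (dm3 chr2L:10278951-10280872, minus strand) had 40.6, 37.4 and 37.9 CPM in het, 34.6, 39.7 and 37.7 CPM in paternal, 39.0, 44.3 and 38.8 CPM in maternal, and 46.2, 44.5 and 49.6 CPM in wildtype libraries. Only the second maternal library came close to the wildtype range. It fell by 0.33 ± 0.0676 on the log2 scale in paternal flies (edgeR adjusted p = 0.0297) and by 0.27 ± 0.0543 in the mean of the 3 groups (adjusted p = 0.0149). CG16826 (dm3 chr2L:13347791-13348959) had 1254 to 1381 CPM in heterozygous libraries, median 1298, and 1442 to 1451 CPM in wildtype libraries, and fell by 0.15 ± 0.0365 (adjusted p = 0.0412). CG33307 (dm3 chr2L:13840806-13841509, minus strand) had 37.0, 36.1 and 36.8 CPM in het, 35.1, 32.9 and 35.1 CPM in paternal, 45.1, 36.5 and 36.9 CPM in maternal, and 43.1, 44.6 and 43.5 CPM in wildtype libraries. The first maternal library was above all wildtype libraries and the other 8 heterozygous ones were below them. CG33307 lies within the span of cenG1A, a gene on the opposite strand. In the mean of the 3 groups cenG1A was at -0.10 (edgeR adjusted p = 0.431). CG33307 fell by 0.35 ± 0.0689 in paternal flies (adjusted p = 0.0215) and by 0.25 ± 0.0553 in the mean (adjusted p = 0.0259). With the replicate block CG34043 and CG33307 passed in het flies too (adjusted p = 0.0301 and 0.037) and CG16826 in maternal flies (0.0399). In the mean of the 3 groups, CG34043 was lost without wildtype library 1 or 3 (up to 0.133), CG33307 without paternal library 1 or 2 or any wildtype library (up to 0.193), and CG16826 without any library other than het 3, maternal 1 or maternal 3 (up to 0.213). In paternal flies, CG34043 was lost without paternal library 1 or 3 or any wildtype library (up to 0.256), without scaling factors and without the robust fit, and CG33307 without any paternal or wildtype library (up to 0.131).

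The replicate block added 20 members to the calls in the mean of the 3 heterozygous groups. Besides REPTOR-BP, CG7311 and CG17098, they include the 5 given here. CG4995 had 92.0 to 101 CPM in heterozygous and 83.7 to 88.1 CPM in wildtype libraries, a log2 change of 0.16 (edgeR adjusted p = 0.0641, 0.00944 with the block). CG5435 had 36.6 to 40.9 CPM and CG15482 49.8 to 60.7 CPM in heterozygous libraries, against 32.4 to 35.2 CPM and 46.6 to 48.4 CPM in wildtype, each a change of 0.18 (0.0645 and 0.0914, with the block 0.0193 and 0.0126). CG3759, now Mco1, a multicopper oxidase, had 37.3 to 41.2 CPM in heterozygous and 41.6 to 48.4 CPM in wildtype libraries, a change of -0.19 (0.0581, with the block 0.0193). None of these 4 genes overlapped between the groups. CG42470 had 2.15 to 3.81 CPM in heterozygous and 3.52 to 4.84 CPM in wildtype libraries, and its change of -0.46 was the largest fall among the tested members (0.0998, with the block 0.0451). These 5 genes were chosen after their values were seen.

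For 37 members whose current name or family says what they do, changes were read by role, in the mean of the 3 heterozygous groups against wildtype. In a lipid group of 11, 1 rose and 3 fell (36.4%, beside 1.49% of all tested genes), all named above. The role groups were drawn up with earlier results of these data known, so this share is a description only. The 3 that fell are the adjacent genes of the cluster. The acid lipase family genes CG18301 and CG18302, which lie apart from the cluster, gave -0.02 and -0.12 (adjusted p = 0.909 and 0.351 by edgeR). The others gave -0.04 for CG15828, now Apoltp, a lipoprotein that loads lipid onto circulating particles (adjusted p = 0.739), and -0.02 and 0.02 for CG6746 and CG9267, now Hacd1 and Hacd2, enzymes of fatty acid elongation (adjusted p = 0.849 and 0.926 by edgeR). Their median log2 change was -0.02, beside -0.01 over all tested genes.

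By edgeR no member passed in the other role groups. The 10 mitochondrial genes ran from -0.06 to 0.13 (2 with unadjusted p under 0.05) and include CG9306, now ND-B22, a subunit of respiratory complex I (0.01), CG5037, now Cox10, needed for heme A (-0.01), and CG7311, now Gpo3, a glycerol-3-phosphate dehydrogenase (0.13, edgeR adjusted p = 0.119, 0.0232 with the replicate block). The 7 genes of cilia and flagella ran from -0.03 to 0.15 with a median of 0.10 and 2 at an unadjusted p under 0.05. They include CG14921, now Dnaaf4, a dynein assembly factor (0.15, adjusted p = 0.306), and CG5343, now Bug22 (0.10, adjusted p = 0.388). Testis and sperm marker sums were higher too, as given above, and their part was not tested. By edgeR 0 of the 9 tested genes of that list passed, 5 had an unadjusted p under 0.05, and the median log2 change was 0.11. The 5 genes of glycan processing ran from -0.09 to 0.09, with none at an unadjusted p under 0.05. No gene of these 3 groups passed by limma, or by DESeq2, which gave no adjusted p for 4 of the 10 mitochondrial, 4 of the 7 cilia and 3 of the 5 glycan genes. CG18619, now REPTOR-BP, a transcription factor that acts below the nutrient sensor TORC1, missed the threshold at -0.24 (adjusted p = 0.0502 by edgeR, 0.0124 with the replicate block, 0.0269 by DESeq2), and CG4705, now Wdr59, a subunit of the GATOR2 complex that regulates TORC1, was at 0.05 (adjusted p = 0.668). The juvenile hormone binding genes CG5867 and CG5945 were at -0.02 and -0.06 (adjusted p = 0.894 and 0.686).

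Whether an obese parent altered the members was asked by comparing the heterozygous groups with each other. By edgeR 0 members passed in paternal against het, maternal against het and maternal against paternal flies, beside 0.00781%, 0.0156% and 0.0156% of all tested genes. DESeq2, limma and the replicate block also gave 0 members in each, and the block's background was 0.00781%, 0.0156% and 0.0234%. At an unadjusted p under 0.05 there were 8 members in paternal against het flies, 23 in maternal against het and 11 in maternal against paternal, which is 2.55%, 7.32% and 3.50% of the members beside 2.11%, 4.15% and 2.75% of all tested genes. In paternal against het flies the smallest p belonged to CG43778, now hbt, with a log2 difference of -0.24 (95% interval -0.39 to -0.09, edgeR adjusted p = 1.0), followed by CG16964 and CG7296, at 0.19 and 0.24 (95% intervals 0.06 to 0.33 and 0.05 to 0.42). In maternal against het flies the order was CG31867 at 1.07 (95% interval 0.60 to 1.53), CG6415 at 0.16 (0.07 to 0.26) and CG43778 at -0.25 (-0.40 to -0.10), with adjusted p = 0.712, 0.993 and 0.993 by edgeR. In maternal against paternal flies it was CG31867 at 0.83 (0.38 to 1.28), CG5731 at 0.26 (0.09 to 0.43) and CG33307 at 0.20 (0.06 to 0.33). The median absolute log2 difference over the members was 0.046 in paternal against het, 0.0599 in maternal against het and 0.0543 in maternal against paternal flies, beside 0.0449, 0.0581 and 0.0549 over all tested genes.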

How the data were processed

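The authors' deposited tables give read counts, FPKM values and regularized log2 values per gene, plus the authors' log2 ratios and scores (adjusted p-values rescaled by the authors) for genes and exons, per the file headers. Reads were aligned with Novoalign to dm3 and compared with DESeq, per the submitters' processing notes. A column header of the deposited values names DESeq2 instead. The notes used here state no version, annotation or strand setting. The 5 tables were joined by gene: 12982 of 13040 genes were complete over the 12 libraries, and the 58 others were dropped. Libraries held 17212029 to 21370713 counts, which limits members of a few counts most.

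Tests on the deposited counts used edgeR 4.0.16 under R 4.3.3 (TMM, filterByExpr with a minimum count of 10 and total of 15, robust quasi-likelihood fit of all 12 libraries, 12809 genes, Benjamini-Hochberg adjustment, threshold 0.05). The scripts were tested on simulated data. DESeq2 1.42.0, limma 3.58.1 (prior count 2), other scalings, filters and fits, and leaving out each library were tried. An error after ± is an SE of the fit; 95% intervals are the estimate ± 1.96 SE. CPM use TMM-scaled totals. Exon starts were shifted by 1 base to count from 1. Roles come from current symbols, matched by identifier, where such a symbol names one. The acid lipase family genes have no such symbol, and no member had a description, so their family was assigned by the analyst.

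The genes named are the members past the threshold against wildtype, those of smallest p between heterozygous groups, the highest by FPKM, the extreme of each 1 Mb window and the first and last by position. Members and lists were chosen with earlier results of these data known. The series describes 1 set of samples per experimental replicate, so the replicate numbers of the titles were read as pairing the libraries. Deviations of same-numbered libraries correlated at 0.119 on average (range -0.0273 to 0.221, 11 of 18 pairs over 0.1), against -0.0592 for other numbers. P-values reflect only how much these libraries vary. No sequence is printed, and promoters were not analysed here.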

Additional observations from a re-analysis of the deposited data

Results flagged for a closer look

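CG33307 in the first maternal library stood apart from the other heterozygous libraries, at 45.1 CPM. The next of the 9 heterozygous libraries was at 37.0 CPM and the lowest at 32.9 CPM, so the gap to the next was 0.667 of the whole range, above Dixon's 95% critical value for 9 samples. Chance gives such a gap in about 1 of 20 groups, and 23 members were examined. Without that library the members past the threshold in the mean of the 3 heterozygous groups numbered 24.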

How the results depend on the processing

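Of 26 other settings, the added one (members with identical counts counted once) was chosen after seeing the data. It gave 6 calls in het, 5 in paternal, 2 in maternal and 13 in the mean of the 3 groups against wildtype. The replicate block moved the counts to 21 in het, 14 in paternal, 15 in maternal and 34 in the mean of the 3 groups against wildtype, holding all 7, 6, 2 and 14 calls. Fits of only the groups compared gave 13, 10 and 1 in het, paternal and maternal flies. DESeq2 gave 7 in maternal flies, sharing 1 call, and no adjusted p for 165 members, including CG14945, CG42751 and CG5421, in the mean of the 3 groups. Without scaling factors, or without the robust fit, paternal flies had 3. Leaving out members that overlap a listed gene gave 1, 1, 0 and 6. Leaving out 1 library gave 1 to 14 in het, 1 to 10 in paternal, 1 to 6 in maternal and 4 to 24 in the mean. No named value changed sign. Besides the losses given in the report, the call in the mean was lost for CG17097 under 6 other settings and for CG16826 under 2, and that in het flies for CG43733 without scaling factors. Under these settings no member passed between heterozygous groups. Low counts limit CG43333, CG3769, CG42367, CG42366 and CG33641, the 5 members under 10 counts in some library. The cause of these shifts was not tested.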
